A study of Mus musculus with 12 samples.

Results

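Adipocytes carrying the T166A substitution in PPARγ (TA) were compared with wild-type adipocytes (WT) over all expressed genes. The comparison rested on the 8 libraries labelled TA or WT, 4 of each, of 12 libraries in the series, and on the 15117 of 55573 genes in the count table that passed a filter on low counts. The TA mice carried the mutation on both alleles in every tissue after CRISPR-Cas9 editing of C57BL/6 J zygotes, and the WT mice were littermates from crosses of heterozygotes. Stromal vascular cells of subcutaneous fat, the mixed cells left after mature adipocytes are removed, were differentiated in culture, so both groups are adipocytes made in a dish from a mixed starting population. Every culture of both genotypes received 850 nM insulin, 1 nM triiodothyronine, 0.5 mM IBMX, dexamethasone and 125 nM indomethacin for 4 days, then insulin and triiodothyronine alone until harvest on day 8. The labels give dexamethasone in mM and the methods of the study in μM. The number, sex and pooling of donor mice per library are not given in the sources used here. The p-values below therefore measure only the spread between these libraries, which may be technical. The 4 libraries of another genotype, TD (T166D, aspartate at the same residue), entered only the estimate of spread.

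PPARγ is the nuclear receptor that drives the making of fat cells. It binds DNA as a pair with a retinoid X receptor (RXR) and switches on genes for fatty acid uptake, storage and secreted adipose hormones. Its DNA-binding domain holds zinc fingers, and the threonine replaced here lies in that domain, where it can carry a phosphate. Alanine at this position cannot be phosphorylated, whereas aspartate mimics the charge of the phosphate. The comparison asked how transcripts differ when this residue can no longer be phosphorylated.

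The codon for the threonine lies in GRCm38 at chr6:115450959-115450961 on the + strand, in a coding exon of Pparg (exon 4 of transcript Pparg-201, chr6:115450944-115451082). It is codon 166 of the 505 codons of Pparg-201 and codon 136 of the 475 codons of Pparg-202 and Pparg-204, in which fewer codons precede it. The unedited reference sequence from the start of the exon, chr6:115450944-115450997, is shown because the genotypes differ by design at this codon, which stands in capitals.
Pparg exon start: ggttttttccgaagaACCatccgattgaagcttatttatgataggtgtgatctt
A table of counts per gene holds no bases, so it cannot show the substitution itself in any library. Transcript levels of Pparg were 373, 331, 344 and 368 CPM (counts per 1000000 after scaling between libraries) in the 4 WT libraries and 353, 428, 322 and 391 CPM in the 4 TA libraries. The ranges overlapped, and the log2 fold change, TA minus WT, was 0.08 ± 0.09 (SE; adjusted p = 0.67, edgeR quasi-likelihood test with Benjamini-Hochberg adjustment over all genes tested). The labels of the libraries thus could not be checked against the targeted gene.

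Across all genes, 1683 differed between TA and WT at an adjusted p under 0.05, which was 11.1% of the genes tested. Of these, 1016 were higher in TA (6.72%) and 667 were lower (4.41%), and 1612 were protein-coding. Most differences were small, with a median log2 fold change of 0.67 among the rises and -0.48 among the falls. The change was over 1 on the log2 scale in 307 of the rises and 117 of the falls. The 4 TA and the 4 WT libraries did not overlap for 13.6% of the genes tested, with TA above in 1165 genes and below in 884. The median log2 fold change of all genes tested was -0.01.

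**Figure D1:**
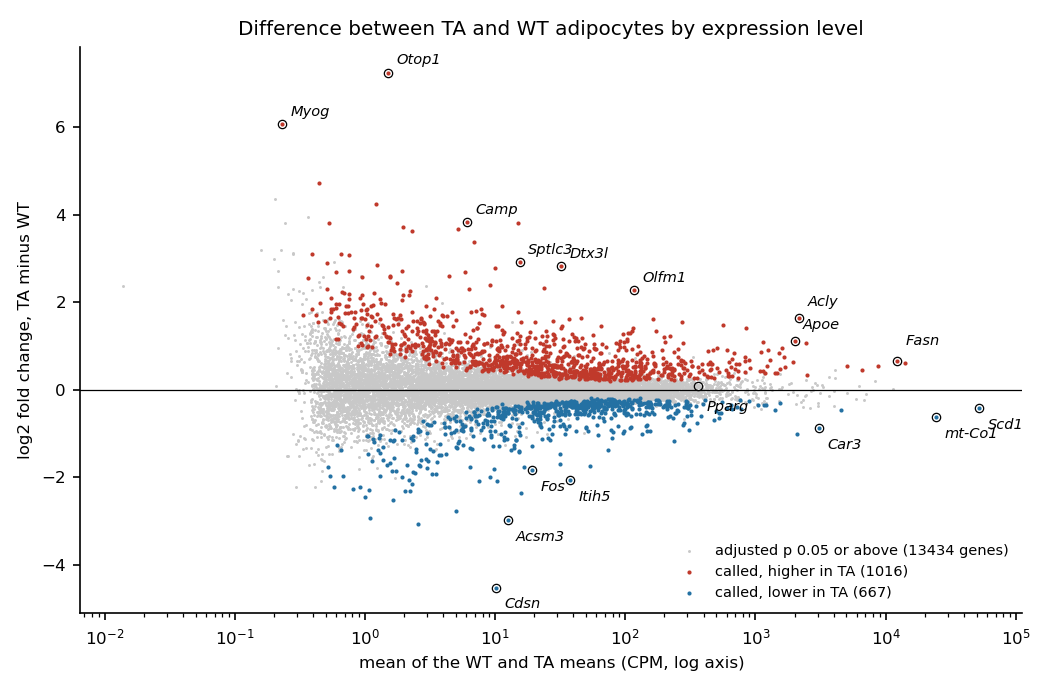
Each point is a gene, with its mean level in CPM on a log axis and its log2 fold change, TA minus WT, on the other axis; red and blue points are the 1016 genes called higher and the 667 called lower in TA, and grey points were not called. Circled genes are named in the text, among them Pparg at 0.08, Otop1 at the top, Cdsn at the bottom and Fasn, Scd1 and mt-Co1 at the right.

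Total counts ran from 18823619 to 20324286 in WT and from 16950175 to 18182526 in TA, so that every WT library was deeper than every TA library. Reads on the mitochondrial chromosome took 4.92 to 5.88% of the counts in WT and 2.74 to 4.50% in TA. In a principal component analysis of the 8 libraries, the first component (34.6% of the variance) separated the genotypes, while the second (21.3%) spread the libraries within each genotype, with WT 2, WT 3 and TA 3 at its low end and TA 2 and WT 4 at its high end. WT 2 and TA 3 were also high, and TA 2 low, for macrophage markers, whose values follow with those of other cell types. The part of depth, of the mitochondrial share and of these markers in the differences below was not tested. In bulk RNA, fewer cells of a type and less RNA per cell cannot be told apart.

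Markers of the labelled cell type were present in every library. Adipoq, which encodes adiponectin, lay between 656 and 865 CPM in the 8 libraries, and Fabp4, a fatty acid carrier of adipocytes, between 6912 and 9985 CPM. Summed over 26 adipocyte markers, the level was 35395 to 39853 CPM in WT and 34433 to 42601 CPM in TA. Of these markers, 7 rose and 3 fell in TA, where 6.72% of all genes tested rose and 4.41% fell, and Adipoq, Fabp4, Plin1, Lpl, Cd36, Retn and Slc2a4 were not called. The rises numbered 4 without WT 3, TA 1 or TA 2. The rises included Gpd1 and Acsl1, and the falls were Lep, Car3 and Pck1, all described below.

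The calls among markers of the stromal cells from which adipocytes arise were all rises. Of 23 progenitor and fibroblast markers, 8 rose (34.8%, against 6.72% of all genes) and none fell. The median log2 fold change was 0.30 (0.17 without TA 3), and the count of rises was 6 to 11 when 1 library was left out. Pdgfra, the receptor that marks adipose progenitors, stood at 174, 190.3, 202 and 186 CPM in WT and 326, 216, 439 and 285 CPM in TA, so TA 2 came close to the WT range and the other TA libraries were well above it. Cd34 rose by 1.42 ± 0.25 and Pi16, a marker of early progenitors, by 1.85 ± 0.29 on the log2 scale. The summed level of the list was 17513 to 23018 CPM in WT and 19451 to 33520 CPM in TA. Cell cycle genes were not called in either direction (0 of 33, median -0.04), and Mki67, the standard marker of cycling cells, differed by -0.31 ± 0.23 (adjusted p = 0.45).

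Vascular markers gave rises as well. Of 14 endothelial markers, 7 rose (50%, against 6.72% of all genes), with a median of 0.66. The rises numbered 5 to 10 when 1 library was left out. In 2 of the 14, every TA library was above every WT library, which held for 7.71% of all genes. The rises included Pecam1 (0.91 ± 0.22) and Cdh5 (0.83 ± 0.20), both adhesion proteins of endothelial junctions. The summed level of the list was 62.5 to 108 CPM in WT and 98.7 to 161 CPM in TA. Of 9 markers of mural cells, which wrap small vessels, 4 rose (44.4%), and 7 without TA 2. Rgs5, a pericyte gene, stood at 3.01, 2.78, 4.06 and 1.64 CPM in WT and 16, 7.75, 24 and 13.2 CPM in TA, the highest in TA 3 and the lowest of the TA libraries in TA 2, with no overlap (2.40 ± 0.29, adjusted p = 4.9e-05). Cspg4 (0.78 ± 0.11), Myh11 (0.65 ± 0.12) and Notch3 (0.54 ± 0.11) were the other called mural markers.

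Skeletal muscle genes had the widest quartile range of all lists. Of 28 tested, 11 rose (39.3%, against 6.72% of all genes) and none fell. The summed level was 21.8 to 45.5 CPM in WT and 53.6 to 162 CPM in TA. Myh8, a myosin of developing muscle, stood at 0.882, 0.0993, 0 and 0.384 CPM in WT and 1.87, 7.44, 4.62 and 3.0 CPM in TA. Myog, the transcription factor of muscle differentiation, had no count in any WT library and 4, 18, 5 and 4 counts in TA, so that 18 of the 31 counts were in TA 2. TA 2 was the highest library for Myh8, Myog and Myh1, and the number of calls was 4 without WT 3, 5 without WT 4, 6 without WT 2 and 7 without WT 1 or TA 2. Of the 28 genes, 8 had at least 10 counts in every TA and WT library, and 1 of these rose in the fit with that filter, so the count of 11 rests mostly on genes at very low counts. The defining markers of muscle precursors, Myod1, Pax7 and Myf5, were at 0 to 2 counts in each of the 8 libraries. The calls of Myh1 and Myog were lost, in turn, without WT 2, WT 3, WT 4 or TA 2 (adjusted p up to 0.099) and without WT 1 (adjusted p = 0.051).

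Macrophage markers varied widely within both genotypes. Only Cd52 of 21 tested was called (4.76%, against 11.1% of all genes), as a fall (-1.72 ± 0.44). The median of the list was nevertheless -0.66, or -0.33 without WT 2, -0.41 without TA 2 and -1.17 without TA 3. Lyz2, the lysozyme of macrophages, stood at 309, 512, 371 and 198 CPM in WT and 176, 94.6, 398 and 211 CPM in TA. WT 2 and TA 3 were the high libraries of their genotypes, and the summed level was 335 to 1003 CPM in WT and 170 to 729 CPM in TA. Without TA 3, 11 of these markers fell, and 3 did without WT 4. The call of Cd52 was lost without WT 2 or TA 4 (adjusted p up to 0.066). No lymphocyte marker passed the filter on low counts.

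Small numbers of counts for markers of other cells were also present. Of 5 neutrophil markers, S100a8, a calcium-binding protein of neutrophils, rose (1.32 ± 0.23), and the others were not called (20% called, against 11.1% of all genes). S100a8 was the only 1 of the 5 with a log2 fold change above 0. The median of the list was -0.48, and -0.77 to -0.29 when 1 library was left out. Glial markers were not called (0 of 8). Of 7 epithelial markers tested, Pkp1 rose and Cdsn fell (28.6% called). The defining epithelial markers Krt5, Krt14 and Epcam were near 0. Summed over 4 libraries, their counts were, in turn, 6, 19 and 0 in WT and 5, 13 and 8 in TA. All 19 counts of Krt14 in WT were in WT 4. The cells that made the Pkp1 and Cdsn transcripts were not tested.

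Among genes with a level of at least 5 CPM, the largest rise was in Camp, which encodes the antimicrobial peptide cathelicidin, with 0.519, 1.54, 0.743 and 0.384 CPM in WT and 14.3, 14, 7.35 and 10.3 CPM in TA (3.82 ± 0.35, adjusted p = 3.5e-06). Ubd, a ubiquitin-like modifier induced by interferon and TNF, rose from 0.623, 1.14, 0.644 and 0.548 CPM in WT to 8.6, 11.3, 8.52 and 9.89 CPM in TA. All 4 TA libraries were far above all 4 WT libraries for both genes. A lack of overlap was required in choosing the largest rises. Sptlc3, a subunit of the enzyme that starts sphingolipid synthesis, stood at 3.58, 2.98, 3.57 and 4.27 CPM in WT and 31.3, 34, 21.9 and 21.8 CPM in TA (2.92 ± 0.17, adjusted p = 3.0e-08). Dtx3l, a ubiquitin ligase that works with PARP9, stood at 7.0, 9.68, 6.34 and 8.6 CPM in WT and 61.7, 62.9, 55.2 and 44.5 CPM in TA (2.82 ± 0.17, adjusted p = 3.0e-08). The neighbouring Parp9 overlaps Dtx3l on the opposite strand, and since no source used here says whether counting used strand, reads of the overlap cannot be assigned with certainty. Parp9 rose by 0.49 ± 0.13, a call that was lost without WT 2, WT 3 or TA 1 (adjusted p up to 0.061).

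The other large rises were Myh1 (3.37 ± 0.98), a muscle myosin, Hephl1 (2.79 ± 0.21), a copper oxidase, Sox18 (2.68 ± 0.25), an endothelial transcription factor, Ttc25 (2.60 ± 0.27), Rgs5, Kcnc2 (2.31 ± 0.21), a potassium channel, Olfm1 (2.28 ± 0.15), a secreted glycoprotein, Clstn2 (2.10 ± 0.37) and Chl1 (1.91 ± 0.40), both adhesion proteins, and the unannotated transcript AA914427 (3.81 ± 0.23). Olfm1 had the highest level of these, 38.9, 51.5, 38.8 and 30.9 CPM in WT and 227, 196, 164 and 191 CPM in TA. Mup17 also rose (2.32 ± 0.50), but its family of major urinary proteins is nearly identical in sequence, so its count is uncertain.

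Among the largest falls, Cdsn, which encodes the skin adhesion protein corneodesmosin, stood at 21.9, 12.7, 19.8 and 23.4 CPM in WT and 0.702, 1.17, 0.724 and 0.778 CPM in TA (-4.52 ± 0.23, adjusted p = 1.3e-08). Acsm3, a medium-chain acyl-CoA synthetase of mitochondria, stood at 33.4, 17.9, 13.6 and 24 CPM in WT and 1.52, 5.35, 1.56 and 2.95 CPM in TA. Itih5, a secreted protein that binds hyaluronan complexes, stood at 69.1, 53, 54.7 and 67.1 CPM in WT and 14.5, 13.3, 12.9 and 17.1 CPM in TA. In all 3 genes the WT and TA ranges were apart, which the choice of the largest falls required. Sncg, a synuclein abundant in adipocytes (-2.36 ± 0.18), Gdf15, a stress-induced hormone (-2.0 ± 0.24), F5, coagulation factor V (-1.93 ± 0.34), Fos, an immediate early transcription factor (-1.84 ± 0.14), Kcnk3, a potassium channel of brown fat (-1.75 ± 0.21), and Rasd1, a small GTPase induced by dexamethasone (-1.70 ± 0.16), fell too. The rest were Strip2 (-2.78 ± 0.30), Lctl (-2.09 ± 0.26), Nptx1 (-1.93 ± 0.27), Phospho1 (-1.80 ± 0.18), Slc6a13 (-1.77 ± 0.24) and 6030408B16Rik (-1.76 ± 0.19).

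**Figure D2:**
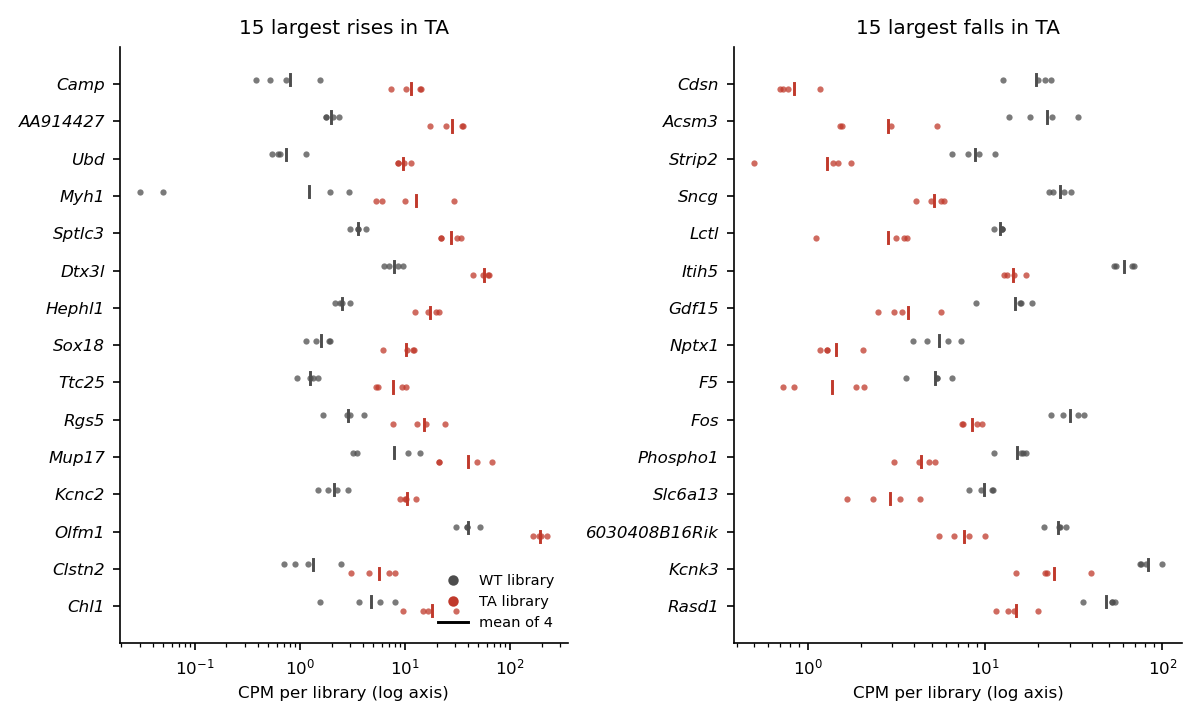
The 15 largest rises and the 15 largest falls in TA are shown per library, with CPM on a log axis, 4 WT and 4 TA points and their means as bars; values under 0.03 CPM, which is only Myh1 in WT 3, are drawn at 0.03. The genes were chosen among those whose WT and TA libraries do not overlap, so the gap in each row follows from the choice.

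Otop1, a proton channel reported in thermogenic fat, was close to an on and off difference. It had 0, 1, 0 and 0 counts in WT and 62, 43, 45 and 56 counts in TA, a ratio of 231 after TMM scaling between libraries, with a 95% counting interval of 41.1 to 9.18e+03. Actn2, a muscle actinin, had 2, 1, 0 and 2 counts in WT and 11, 32, 20 and 5 in TA (ratio 15.3, 6.23 to 48.5). Its call was lost without any 1 library other than TA 4 (adjusted p up to 0.12), whereas that of Otop1 held in every such fit.

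The partners of PPARγ differed in both directions. RXRα is the usual DNA-binding partner of PPARγ in fat, and its gene Rxra stood at 201, 208, 193 and 211 CPM in WT and 319, 314, 272 and 311 CPM in TA (0.58 ± 0.07, adjusted p = 4.3e-05). Rxrg, encoding the related RXRγ, stood at 8.2, 6.8, 5.15 and 9.04 CPM in WT and 2.98, 3.14, 2.45 and 3.0 CPM in TA (-1.33 ± 0.22, adjusted p = 8.0e-04). The coactivators PGC-1α and PGC-1β also parted, with Ppargc1a up by 0.52 ± 0.11 and Ppargc1b at -0.97 ± 0.18. For all 4 genes the TA and WT libraries did not overlap. These 4 were the only calls among 23 PPAR, RXR and LXR receptors and coregulators, a share of 17.4% against 11.1% of all genes. Prdm16, a coregulator of brown fat, differed by -0.10 ± 0.15 (adjusted p = 0.75).

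Known target genes of PPARγ gave calls in both directions. Of 35 targets tested, 8 rose and 2 fell, so that 28.6% were called against 11.1% of all genes. Their median was 0.13, or 0.03 without WT 2, 0.04 without TA 2 and 0.07 without TA 4. The rises numbered 4 without WT 3 or TA 2 and 5 without WT 2 or TA 4, and the falls 4 without TA 2. The classic targets Fabp4 (0.21 ± 0.11), Cd36 (0.03 ± 0.10), Lpl (-0.24 ± 0.09), Adipoq (0.14 ± 0.09) and Plin1 (-0.04 ± 0.09) were not called. Plin2, which coats lipid droplets, rose from 666, 508, 575 and 595 CPM in WT to 782, 908, 712 and 868 CPM in TA. Pck1, an enzyme of gluconeogenesis and of glycerol synthesis in fat, fell from 5.4, 1.64, 2.33 and 5.7 CPM in WT to 0.936, 0.492, 0.445 and 1.44 CPM in TA. Aqp7, the glycerol channel, rose by 0.60 ± 0.16, a call that was lost without WT 1, WT 3, TA 1 or TA 2 (adjusted p up to 0.086). The direct repeat bound by PPAR and RXR (2 copies of AGGNCA, 1 base apart, on either strand) was searched in RefSeq promoters from 250 bases before to 50 after the start. It stood in 0.285% of 10870 tested genes with a promoter window and in 0 of 27 listed targets, so the window holds no such letters for them. Transcription factors of fat cell formation were called no more often than all genes, at 8.7% against 11.1%. Of 23 tested, 1 rose, Srebf1 (0.32 ± 0.08), and 1 fell, Ebf2 (-0.35 ± 0.08), while Cebpa differed by -0.18 ± 0.10 (adjusted p = 0.27). The call of Srebf1 was lost without WT 1, WT 3, TA 1 or TA 2 (adjusted p up to 0.074).

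Genes that turn citrate into fatty acids rose together. Acly, the enzyme that splits citrate into acetyl-CoA in the cytosol, stood at 988, 1135, 1005 and 1102 CPM in WT and 3926, 2978, 3652 and 2525 CPM in TA (1.63 ± 0.12, adjusted p = 3.4e-07). Acaca, the carboxylase that makes malonyl-CoA, stood at 696, 734, 756 and 953 CPM in WT and 1687, 1395, 1489 and 1128 CPM in TA (0.86 ± 0.12). Fasn, fatty acid synthase, stood at 9447, 8298, 8369.9 and 12204 CPM in WT and 17054, 15563, 13504 and 13863 CPM in TA (0.65 ± 0.13). Every TA library was above every WT library for these enzymes. The citrate carrier Slc25a1 (0.83 ± 0.08), the NADPH-making malic enzyme Me1 (0.84 ± 0.11), and Thrsp, a lipogenic protein of adipocytes (0.90 ± 0.09), rose as well. In the whole list, 14 of 28 genes rose (50%, against 6.72% of all genes) and 2 fell (7.14% against 4.41%), with a median of 0.25. In 12 of the list every TA library was above every WT library, which held for 7.71% of all genes.

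Acacb, the carboxylase isoform at mitochondria whose product holds back fatty acid oxidation, fell, with 381, 287, 311 and 458 CPM in WT and 236, 287, 190.0 and 228 CPM in TA (-0.61 ± 0.13). WT 2 and TA 2 stood at the same level, and the other libraries were apart. Elongation and desaturation were divided. Elovl6, which extends palmitate, rose by 1.18 ± 0.19, and the desaturases of polyunsaturated fatty acids, Fads1 and Fads2, rose by 0.54 ± 0.10 and 0.60 ± 0.08. Scd1, which puts the first double bond into stearate, was the gene with the most counts in the table. Its level was 58932, 56511, 60665 and 64019 CPM in WT and 49821, 51630.3, 38646 and 40446 CPM in TA, lower in every TA library (-0.41 ± 0.12, adjusted p = 0.031), and it took 5.69 to 6.21% of all counts in WT and 3.91 to 4.95% in TA. The call of Scd1 was lost without WT 1, WT 3, WT 4, TA 3 or TA 4 (adjusted p up to 0.079). Scd2, its paralog, differed by -0.08 ± 0.10 (adjusted p = 0.67). The scale of CPM moves with genes of this abundance, and under scaling to library totals the share of called genes that were higher was 56.2% in place of 60.4%.

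Uptake, activation and esterification of fatty acids gave single large rises in lists with falls as well. Slc27a1, a fatty acid transporter and acyl-CoA synthetase, stood at 309, 303, 275 and 299 CPM in WT and 795, 802, 794 and 919 CPM in TA (1.48 ± 0.08, adjusted p = 1.6e-08). Gpd1, which makes glycerol 3-phosphate from a glycolytic intermediate, stood at 482, 422, 399.7 and 557 CPM in WT and 1361, 1326, 1291 and 980.0 CPM in TA (1.41 ± 0.12, adjusted p = 9.6e-07). Both were apart by a wide gap. Gpam, the acyltransferase that starts triglyceride assembly, rose by 0.51 ± 0.09, Gpd2, the mitochondrial partner of Gpd1, by 0.63 ± 0.12, and Acsl1, the main long-chain acyl-CoA synthetase, by 0.64 ± 0.14. Acot2, which releases fatty acids from CoA in mitochondria, fell (-1.14 ± 0.15), as did Lpin2, a phosphatidate phosphatase (-0.42 ± 0.10). Of 22 genes of triglyceride assembly 6 rose and 3 fell (40.9% called, against 11.1% of all genes). The rises of this list numbered 4 without WT 3, TA 1 or TA 2. Of 23 acyl-CoA enzymes 4 rose and 3 fell (30.4% called), and 2 rose without WT 1, WT 3 or TA 4. Dgat2, which adds the last acyl chain, rose by 0.38 ± 0.10, and its call was lost without WT 2, WT 3, TA 1 or TA 2 (adjusted p up to 0.082).

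The first lipase of the droplet was not called. Pnpla2, adipose triglyceride lipase, stood at 3427, 2926, 2973 and 3509 CPM in WT and 3144, 4135, 2469.7 and 3665 CPM in TA, and TA libraries lay both above and below the WT range. Of 18 droplet and lipolysis genes, 3 rose: Plin2, Cidec, a protein of droplet fusion (0.50 ± 0.14), and the carboxylesterase Ces1f (0.98 ± 0.15). The call of Cidec was lost without WT 1, WT 2, WT 3, TA 1, TA 2 or TA 4 (adjusted p up to 0.090). Of 30 sphingolipid genes, Sptlc3 and Sptssa (0.49 ± 0.10), both parts of serine palmitoyltransferase, rose (4 rose without TA 2), and Cers2, a ceramide synthase (-0.33 ± 0.06), fell. The called shares were 16.7% for droplet and lipolysis genes and 10% for sphingolipid genes, beside 11.1% of all genes.

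All calls among sterol genes were rises. Of 27 genes, 10 rose (37%, against 6.72% of all genes) and none fell (median 0.24). The rises numbered 5 without WT 3 and 6 without WT 2 or TA 1. Cyp51, which removes a methyl group from lanosterol, stood at 1165, 964, 1055 and 1219 CPM in WT and 2371, 2183, 2041 and 1912 CPM in TA (0.95 ± 0.10, adjusted p = 7.5e-06). Insig2, which holds SREBP in the endoplasmic reticulum, rose by 0.63 ± 0.08, and Hsd17b7 by 0.52 ± 0.11. Hmgcs1, an enzyme early in the pathway, was not called (-0.22 ± 0.12). The sterol element TCACNCCAC (both strands) stood in the promoter windows of 1.43% of tested genes, of 1 of 24 genes of the fatty acid list and of 1 of 19 of the sterol list. It stood in 0 of 12 and 0 of 9 of the members called higher, in turn.

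**Figure D3:**
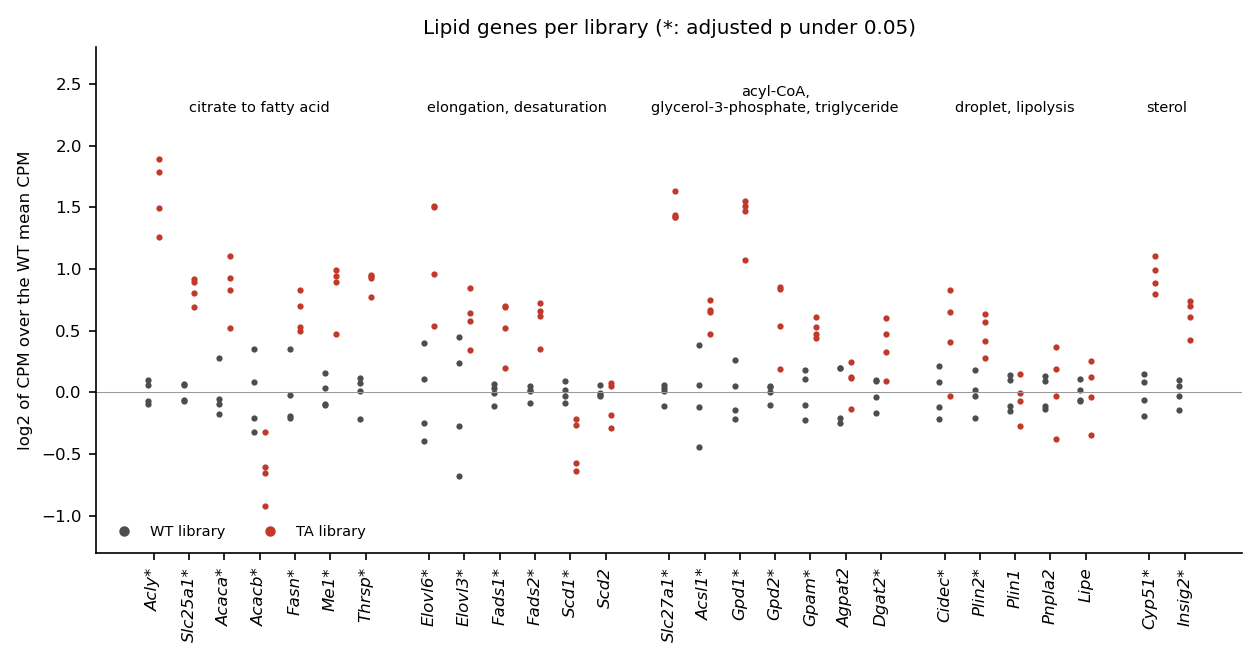
Each point is a library, shown as the log2 of its CPM over the mean of the WT libraries, for 27 genes grouped by step; an asterisk marks an adjusted p under 0.05. The TA points of Acly, Slc27a1 and Gpd1 stand well above 0, those of Scd1 and Acacb below it, and those of Plin1 and Pnpla2 on both sides.

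Beige and brown fat genes were divided in direction, and 45% were called, against 11.1% of all genes. Of 20 tested, 4 rose and 5 fell, with a median of -0.07 (-0.14 to 0.01 when 1 library was left out). The rises numbered 2 without WT 2, WT 3, TA 1 or TA 2. Ucp1, the uncoupling protein of thermogenic fat, and Cidea did not pass the filter on low counts. Ucp1 had 5, 0, 0 and 2 counts in WT and 1, 0, 0 and 0 in TA, while Cidea had 13, 4, 12 and 16 counts in WT and 0, 8, 2 and 10 in TA. Neither gene was tested, and no difference can be read from counts this low. Dio2, which activates thyroid hormone, stood at 5.34, 4.22, 6.74 and 6.36 CPM in WT and 1.29, 3.51, 1.89 and 1.39 CPM in TA (-1.49 ± 0.29, adjusted p = 0.0032). Kcnk3 stood at 99, 74.7, 76 and 80.3 CPM in WT and 22.2, 39.4, 15 and 21.7 CPM in TA. Both were lower in every TA library. Hspb7, a small heat shock protein, fell by 0.85 on the log2 scale, and Ppargc1a and Otop1 rose, as given above. Cox7a1, a respiratory chain subunit of muscle and brown fat, fell (-0.84 ± 0.23), and Elovl3 rose (0.61 ± 0.19). Their calls were lost without WT 1, WT 4, TA 1 or TA 3 (adjusted p up to 0.092) and without WT 2, WT 3, TA 1, TA 2 or TA 4 (adjusted p up to 0.12), in turn.

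Genes induced by type I interferon formed the list with the largest number of rises, 48.3% of its genes against 6.72% of all genes. The share that rose was larger in the list of innate defence and acute phase proteins (62.1%) and that of interferon GTPases and antigen presentation (61%). It was 50% for fatty acid synthesis and for endothelial markers. Interferons are defence signals that act through JAK kinases and STAT factors, and a complex of STAT factors with IRF9 binds an element of 2 copies of GAAA, 2 bases apart, in front of its target genes. Of 60 genes induced by type I interferon, 29 rose and none fell, with a median of 0.68. All 60 had a log2 fold change above 0 in the main fit. That of Ifi27, which was not called, ran from -0.07 to 0.06 in the alternative fits and was below 0 in 9 of them. In 35 of the 60, every TA library was above every WT library, which held for 7.71% of all genes. Leaving out 1 library gave 20 to 35 rises. Of 41 further genes, for interferon-induced GTPases, proteasome and antigen presentation, 25 rose and none fell (median 0.62, 14 to 27 rises when 1 library was left out, the lowest without WT 3, and 16 without WT 2).

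Ifi27l2a, a small protein of mitochondria induced by interferon, stood at 163, 128, 101 and 138 CPM in WT and 297, 310.4, 304 and 321 CPM in TA (1.22 ± 0.15, adjusted p = 7.5e-05). Trim30a, a restriction factor, stood at 23.5, 18.4, 23.7 and 33 CPM in WT and 63.9, 58.7, 53.4 and 50.1 CPM in TA (1.20 ± 0.24). Zbp1, a sensor of nucleic acids, stood at 18.2, 17.3, 15 and 20.2 CPM in WT and 34.7, 41.4, 38.6 and 45.6 CPM in TA. The genotypes were apart in each of them. Isg15, a ubiquitin-like modifier, was 30.8, 18.3, 19.8 and 36 CPM in WT and 56, 70.4, 40.3 and 59.2 CPM in TA, with the high WT libraries 1 and 4 near TA 3. The signalling factor Stat2 rose by 0.67 ± 0.17, and Irf7 and Irf9 differed by 0.61 ± 0.27 and 0.33 ± 0.12 without a call. Herc6 (1.19 ± 0.24), Lgals9 (1.03 ± 0.16), Ifitm3 (0.62 ± 0.13), Lgals3bp (0.67 ± 0.12), Ifi203 (0.97 ± 0.18) and Oas1a (1.13 ± 0.29) rose. The calls of Isg15, Stat2 and Oas1a were lost, in turn, without WT 2 or WT 3 (adjusted p up to 0.059), without WT 3 (adjusted p = 0.053) and without WT 1, WT 3 or TA 4 (adjusted p up to 0.058).

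Antigen presentation genes and interferon GTPases were among these rises. B2m, the light chain of MHC class I, stood at 1105, 961, 968 and 929 CPM in WT and 1508, 1559, 1601 and 1699.8 CPM in TA (0.68 ± 0.09, adjusted p = 8.3e-05). The class I heavy chains H2-K1 (0.46 ± 0.14), H2-D1 (0.43 ± 0.11) and H2-Q4 (1.06 ± 0.14) rose, and these paralogs can share reads. Their chaperone Tapbp differed by -0.20 ± 0.09 (adjusted p = 0.17). The GTPases Gbp3 (0.97 ± 0.22), Gbp4 (2.43 ± 0.26) and Gbp9 (1.37 ± 0.23), which attack vacuoles of pathogens, rose with no overlap. The Gbp genes, Oas1a and Ifi203 belong to families of similar sequence, so reads may be shared between copies. The calls of H2-K1 and H2-D1 were lost without WT 2, WT 3, WT 4, TA 2 or TA 4 (adjusted p up to 0.12) and without WT 3 or TA 4 (adjusted p up to 0.065), in turn.

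Transcripts upstream of these genes gave no call that held in every fit with 1 library left out. Ifnb1, Ifng, Ifna1, Ifna2, Ifna4, Ifnl2 and Ifnl3 had 0 counts in all 8 libraries. Of 15 sensors, receptors and kinases tested, Tmem173, which encodes STING (0.64 ± 0.17), and Tlr3, a sensor of double-stranded RNA (0.75 ± 0.20), rose, and Ifngr1 fell (-0.24 ± 0.07), which is 20% of the list against 11.1% of all genes. Their calls were lost, in turn, without WT 1, TA 3 or TA 4 (adjusted p up to 0.064), without WT 1, WT 3, WT 4 or TA 1 (adjusted p up to 0.085) and without any 1 library other than TA 2 (adjusted p up to 0.12). Jak1 differed by 0.13 ± 0.08 (adjusted p = 0.33). Macrophages also express many of the listed genes, and their part in these rises was not tested.

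The interferon element was searched in RefSeq promoter windows (GRCm38.p6, both strands, 250 bases before to 50 after the start). It stood in 3.44% of all 32851 windows, in 3.81% of 10870 tested genes, in 7.76% of 722 genes called higher and in 1.79% of 504 called lower. Within the type I list it stood in 24 of 46 genes, in 12 of 22 called and 12 of 24 not called, and in the GTPase and MHC list in 12 of 30. A match of letters does not show binding. The 80 bases around the element are shown for the 6 called members with the largest rise that hold it, since they let the letters be compared between genes that rose alike; capitals mark the element, which reads as copies of TTTC where it lies on the other strand.
Trim30a (chr7:104465185-104465264, - strand): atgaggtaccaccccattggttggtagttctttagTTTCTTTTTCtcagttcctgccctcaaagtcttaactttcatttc
Oas1a (chr5:120907501-120907580, - strand): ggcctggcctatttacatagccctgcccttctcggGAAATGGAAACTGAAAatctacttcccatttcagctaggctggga
Isg15 (chr4:156200852-156200931, - strand): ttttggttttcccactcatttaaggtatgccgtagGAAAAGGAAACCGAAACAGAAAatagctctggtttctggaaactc
Lgals9 (chr11:78984935-78985014, - strand): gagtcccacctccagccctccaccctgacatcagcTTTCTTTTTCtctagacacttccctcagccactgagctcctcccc
Gbp3 (chr3:142559964-142560043, + strand): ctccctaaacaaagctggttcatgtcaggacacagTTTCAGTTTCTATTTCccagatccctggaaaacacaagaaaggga
Ifi203 (chr1:173942483-173942562, - strand): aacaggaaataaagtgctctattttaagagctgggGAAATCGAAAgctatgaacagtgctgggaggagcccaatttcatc
The first base of the first element in each promoter lay between -78 and -20 bases from the start, and in Oas1a, Isg15 and Gbp3 overlapping copies formed 1 longer stretch. Lgals9 held 2 elements in its promoter, 1 of them within the bases shown.

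Proteins of innate defence and the acute phase rose beside them. Of 29 tested, 18 rose and none fell, with a median of 0.58, and leaving out 1 library gave 16 to 18 rises. C3, the central protein of complement, stood at 5306, 5638, 5580.0 and 5779 CPM in WT and 7749, 5939, 8335 and 8378 CPM in TA, where TA 2 was the closest to WT (0.45 ± 0.11). C4b (0.76 ± 0.11) and Cfb (0.93 ± 0.13), complement proteins too, rose. Saa3, the serum amyloid A made in fat, stood at 1478, 1703, 1744 and 1363 CPM in WT and 3162, 1774, 4859.6 and 3326 CPM in TA. TA 2 lay at the top of the WT range, and TA 3 was the highest (1.06 ± 0.21, adjusted p = 0.0032). Orm1 (1.09 ± 0.10) and Serpina3n (0.54 ± 0.10), acute phase proteins of plasma, rose, whereas Hp, haptoglobin, differed by 0.01 ± 0.14 (adjusted p = 0.98). The call of C3 was lost without WT 1 (adjusted p = 0.052). Saa3, Pdgfra and the summed progenitor markers were all lowest in TA 2 and highest in TA 3 among the TA libraries, and the part of those markers in these rises was not tested.

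Chemokines gave 5 rises and no fall among 24 tested, so that 20.8% rose against 6.72% of all genes. Cxcl13, an attractant of B cells, stood at 143, 159, 151 and 104 CPM in WT and 495, 261, 549 and 324 CPM in TA (1.55 ± 0.19, adjusted p = 5.3e-05). Cxcl12, made by stromal cells, stood at 309, 411, 389 and 288 CPM in WT and 685, 455, 870.0 and 681 CPM in TA, again with TA 2 lowest and TA 3 highest of its group. Cxcl9, which interferon induces, rose by 1.45 ± 0.30, and Ccl11 by 1.44 ± 0.22. Ccl2, an attractant of monocytes, differed by 0.10 ± 0.12 (adjusted p = 0.69).

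**Figure D4:**
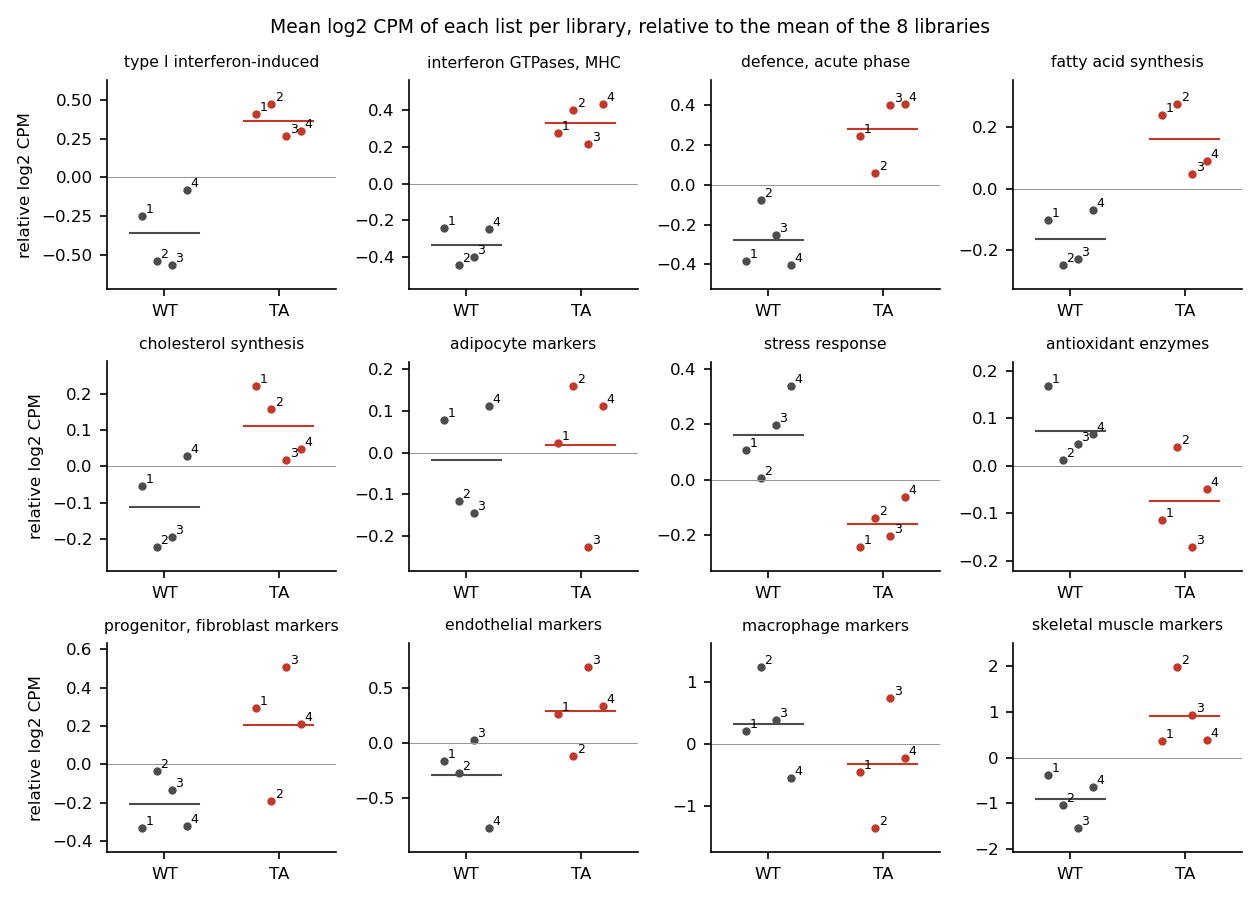
For 12 gene lists each numbered point is a library, placed at the mean log2 CPM of the list's tested genes relative to the mean of the 8 libraries, and each bar is the mean of 4. The lists for interferon, defence, fatty acid synthesis and skeletal muscle had every TA library above every WT library, stress response had every TA library below, and macrophage and endothelial markers overlapped.

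All calls among stress response genes were falls, at 26.7% of the list against 4.41% of all genes. Of 30 genes of the unfolded protein and amino acid responses and heat shock, none rose and 8 fell, with a median of -0.28 and 5 to 11 falls when 1 library was left out, the lowest without WT 4 or TA 1. Gdf15 stood at 16, 8.94, 15.7 and 18.3 CPM in WT and 3.39, 3.07, 2.5 and 5.67 CPM in TA. Phgdh, the first enzyme of serine synthesis, stood at 49.9, 39.3, 43.1 and 52 CPM in WT and 22.7, 18.9, 26.6 and 23.7 CPM in TA (-1.0 ± 0.11, adjusted p = 1.9e-05). Neither overlapped. Hspa5, the main chaperone of the endoplasmic reticulum, fell (-0.44 ± 0.12), but WT 4 and WT 1 made most of the difference, with 947, 682, 767 and 1139 CPM in WT and 647, 644, 694 and 627 CPM in TA. The call of Hspa5 was lost without WT 1, WT 4, TA 1 or TA 4 (adjusted p up to 0.083). The chaperone Hsp90b1 differed by -0.10 ± 0.08 (adjusted p = 0.46).

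Most calls among antioxidant genes were falls. Of 44 tested, 2 rose and 12 fell (27.3%, against 4.41% of all genes), with a median of -0.16 (-0.09 without TA 3). In 11 of the list every TA library was below every WT library, which held for 5.85% of all genes. Hmox1, which breaks down haem, stood at 279.9, 257, 316 and 467 CPM in WT and 132, 144, 171 and 142 CPM in TA (-1.16 ± 0.15, adjusted p = 1.1e-04). Srxn1, which repairs peroxiredoxins, stood at 78.8, 74.1, 86.5 and 87.1 CPM in WT and 49.6, 53.8, 53.7 and 51.3 CPM in TA (-0.65 ± 0.07). Gclc, the catalytic subunit of glutathione synthesis, stood at 39.8, 41.3, 47.8 and 45.4 CPM in WT and 29.7, 30.5, 29.7 and 29.5 CPM in TA (-0.55 ± 0.08). The spread within each genotype was small for Srxn1 and Gclc. Gclm, the other subunit (-0.52 ± 0.09), and Gpx4, which removes lipid peroxides (-0.63 ± 0.11), fell as well. Gstt1, a glutathione transferase, rose (1.04 ± 0.20), and catalase, Cat, differed by 0.22 ± 0.09 (adjusted p = 0.15).

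Nuclear genes of the respiratory chain were rarely called, at 1.2% of the list against 11.1% of all genes. Of 83 nuclear genes of the respiratory chain, none rose and 1, Cox7a1 (given above with the fits that lose it), fell (median -0.11), but 8 fell without TA 2 (median -0.19). Atp5b, a subunit of ATP synthase, differed by -0.13 ± 0.10 (adjusted p = 0.47). Of 13 genes on the mitochondrial chromosome, mt-Co1, a subunit of cytochrome oxidase, and mt-Nd5, a subunit of complex I, fell, with a median of -0.28 for the list, or -0.14 without TA 4 and -0.43 without TA 1. Transcripts of mt-Co1 stood at 33205, 25535, 28319 and 31552 CPM in WT and 22489, 23187, 17209 and 14244 CPM in TA, lower in every TA library and lowest in TA 4 (-0.62 ± 0.15). The call of mt-Nd5 (-0.46 ± 0.13) was lost without WT 1, WT 3 or TA 3 (adjusted p up to 0.059). Of 23 genes of mitochondrial fatty acid oxidation, 1 rose and 2 fell, or 4 without TA 2, of which Acad10 (-0.77 ± 0.13) held in every fit with 1 library left out, while Acadm differed by 0.13 ± 0.09 (adjusted p = 0.36). Of 26 peroxisomal genes, 3 rose, or 6 without TA 3, with Ephx2, a hydrolase of lipid epoxides, at 187, 162, 164 and 192 CPM in WT and 331, 387, 273 and 346 CPM in TA (0.92 ± 0.10), and 2 fell. The called shares were 15.4% on the mitochondrial chromosome, 13% for mitochondrial fatty acid oxidation and 19.2% for peroxisomal genes.

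Genes for the use of fuels other than fat gave scattered calls. Of 21 genes of branched-chain amino acid breakdown, 3 fell, or 5 without TA 2, among them Hibch (-0.53 ± 0.12) and Dbt (-0.36 ± 0.09). Of 26 genes of glucose uptake and glycolysis, Pfkfb3, which makes the activator of phosphofructokinase, rose from 423, 559, 521 and 532 CPM in WT to 854, 909, 695 and 829 CPM in TA (0.69 ± 0.10, adjusted p = 2.4e-04). Aldoc (-0.89 ± 0.16) and Gpi1 (-0.46 ± 0.11), both glycolytic enzymes, fell. The insulin-sensitive transporter Slc2a4 differed by 0.13 ± 0.10 (adjusted p = 0.45). In the citric acid cycle, Sucla2 rose by 0.35 ± 0.08, 1 of 2 rises among 25 genes, but 7 genes of this list fell without TA 2 and 4 rose without TA 3. The called shares were 14.3% for branched-chain amino acid breakdown, 15.4% for glucose uptake and glycolysis and 8% for the citric acid cycle, beside 11.1% of all genes.

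Secreted factors of fat changed in both directions. Of 25 adipokines, 10 rose and 5 fell, so that 60% were called against 11.1% of all genes. Without TA 2, 8 fell. Lep, which encodes leptin, stood at 131, 139, 117 and 120.3 CPM in WT and 57.9, 78.5, 52.8 and 66.1 CPM in TA (-0.99 ± 0.12, adjusted p = 6.4e-05). Rbp4, the plasma carrier of retinol, stood at 749.7, 597, 616 and 612 CPM in WT and 382, 418, 315 and 529 CPM in TA (-0.65 ± 0.13). Apoe, an apolipoprotein, stood at 1533, 1186, 1044 and 1338 CPM in WT and 2520.3, 2984, 2166 and 3279 CPM in TA (1.10 ± 0.15, adjusted p = 1.2e-04). The ranges were apart for these 3 genes. Apln, apelin, rose by 0.94 ± 0.14. Car3, a carbonic anhydrase that is abundant in fat cells, stood at 4051, 4003, 3895 and 4108 CPM in WT and 2335, 1744, 2382 and 2282 CPM in TA (-0.88 ± 0.10). Adiponectin (Adipoq), resistin (Retn, 0.19 ± 0.12) and adipsin (Cfd, -0.45 ± 0.15, adjusted p = 0.067) were not called. Gsn, an actin-severing protein (0.60 ± 0.10), and Selenop, which carries selenium in plasma (0.33 ± 0.08), were further rises among the called genes with the most counts. The call of Selenop was lost without WT 4 or TA 1 (adjusted p up to 0.062).

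Matrix genes rose in part, together with the progenitor markers. Of 33 collagen genes, 7 rose and 1 fell (24.2% called, against 11.1% of all genes). Their median was 0.19, or 0.31 without TA 2 and 0.08 without TA 3. Col15a1, a collagen of basement membranes, stood at 308, 335, 368 and 304 CPM in WT and 658, 589, 585 and 641 CPM in TA (0.91 ± 0.08, adjusted p = 2.9e-06). TA 2 was within the other TA libraries here. In contrast, Col3a1, a fibrillar collagen, stood at 5911, 8491, 7589 and 6604 CPM in WT and 10358, 7394, 13352 and 10519 CPM in TA, with TA 2 inside the WT range (0.54 ± 0.17, adjusted p = 0.050). The call of Col3a1 was lost without WT 1, WT 3, WT 4, TA 1, TA 3 or TA 4 (adjusted p up to 0.15). Col4a1 (-0.10 ± 0.09) and Col1a1 (0.12 ± 0.16) were not called, and Col12a1 fell (-0.54 ± 0.13). Of 36 matrix proteases and their inhibitors, 7 rose, with Adamts15 (0.67 ± 0.09) and Adamts19 (2.57 ± 0.32) among them, and 2 fell (25% called). The rises of this list numbered 3 without WT 1 or WT 4, 4 without TA 1, TA 3 or TA 4 and 11 without TA 2, and the falls 5 without TA 3 and 0 without WT 3, TA 1 or TA 2.

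The called share of signalling genes differed between lists, beside 11.1% of all genes. It was 28.6% for Wnt, 45.5% for the IGF axis and 25.6% for TGF-β and BMP. For adrenergic and cAMP genes it was 20%, for insulin signalling 13.3% and for genes induced by glucocorticoid 18.8%. In the Wnt list, 5 of 21 rose, or 3 without WT 1 or TA 3, and 1 fell. Sfrp2, a secreted Wnt modulator of stromal cells, stood at 30.8, 44.1, 31.4 and 26.9 CPM in WT and 79.8, 50.7, 111 and 73.3 CPM in TA (1.24 ± 0.20), Wnt5b rose by 2.22 ± 0.33, and the receptor Fzd5 fell (-0.79 ± 0.14). In the IGF axis, 5 of 11 rose, including the binding proteins Igfbp3 (0.56 ± 0.13) and Igfbp5 (1.05 ± 0.25). Of 39 TGF-β and BMP genes, 6 rose and 4 fell, and Grem1, a BMP antagonist, was the largest of the falls (-2.94 ± 0.49). The rises numbered 1 without WT 1, TA 1 or TA 3 and 2 without WT 4, and the falls 2 without WT 2, WT 3 or TA 1. Of 35 adrenergic and cAMP genes, 4 rose and 3 fell, with Prkar2b, the regulatory subunit of protein kinase A in fat, at 583, 541, 573 and 674 CPM in WT and 389, 434, 340.2 and 313 CPM in TA (-0.68 ± 0.10, adjusted p = 3.3e-04). Adrb3, the adrenergic receptor of adipocytes, differed by -0.07 ± 0.18 (adjusted p = 0.85). Of 30 insulin signalling genes, 3 rose, or 1 without WT 1, WT 2 or TA 1, and 1 fell. Of 16 genes induced by glucocorticoid, 3 fell, or 1 without TA 1, and Hsd11b1, which regenerates the active hormone, was 1 of them (-0.53 ± 0.12).

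Genes of ribosomes were rarely called, at 2.47% of ribosomal protein genes and 1.32% of mitoribosomal genes. The called share was 5.26% for circadian clock genes and 12.5% for genes induced by hypoxia, beside 11.1% of all genes. Of 81 ribosomal protein genes, 2 rose, or 6 without TA 2 and 0 without WT 2, of 76 mitoribosomal genes 1 fell, of 19 circadian clock genes 1 fell, and of 16 genes induced by hypoxia 2 fell, Adm (-0.43 ± 0.09), a vasodilating peptide, among them.

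**Figure D5:**
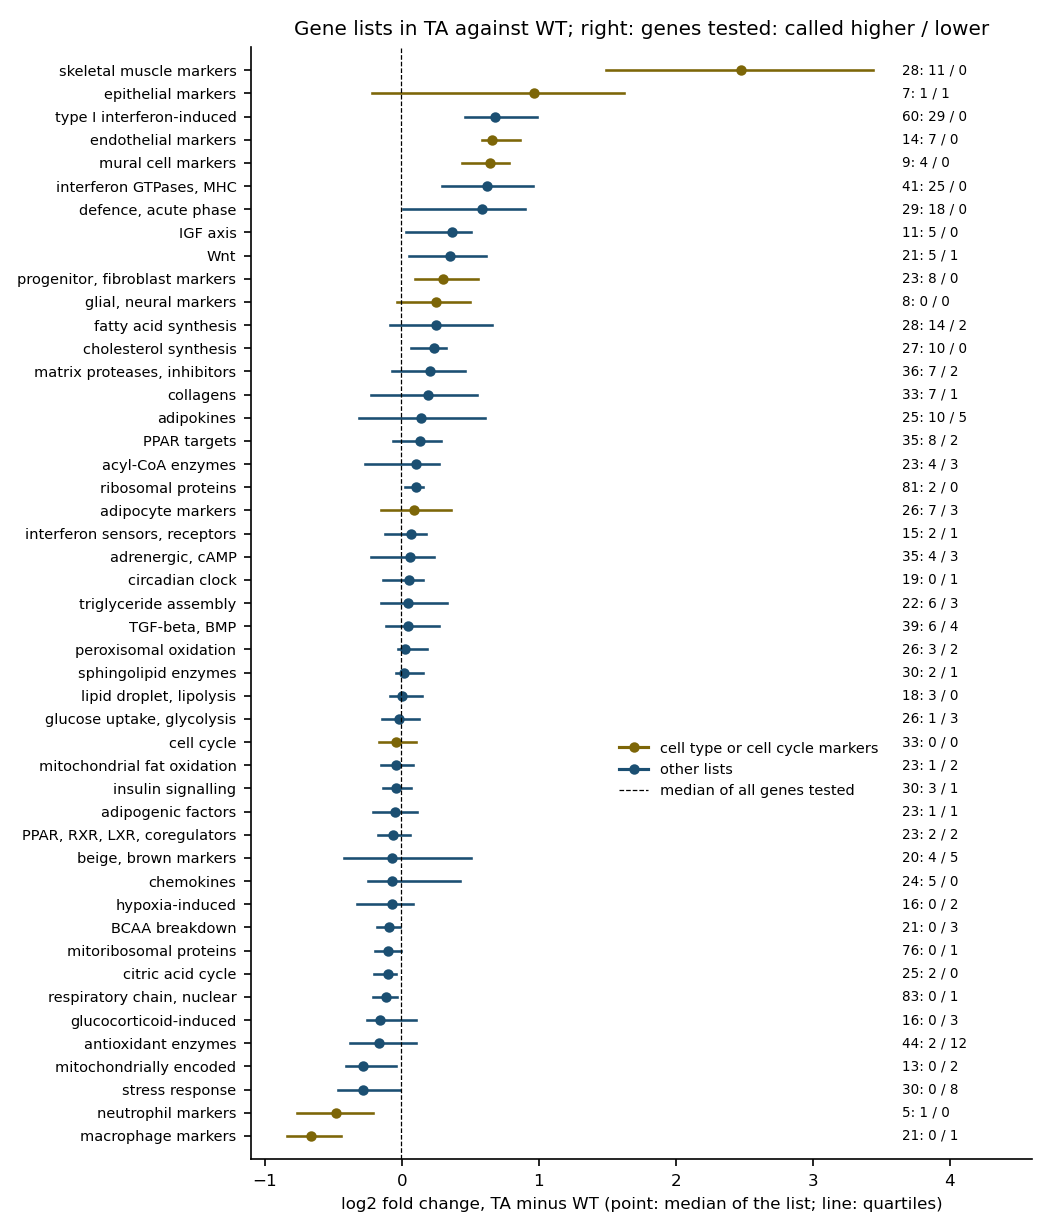
Each row is a gene list, with the median log2 fold change (point) and quartiles (line) of its tested genes, and with the number tested, called higher and called lower at the right; brown rows are cell type or cell cycle markers. Skeletal muscle markers stand farthest to the right at 2.47, where 8 of 28 genes had at least 10 counts in every library, and macrophage markers farthest to the left at -0.66, and most lists lie near the dashed median of all genes.

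Genes near Pparg on chromosome 6 were examined because the edited codon lies there. Of 47 genes tested within 2 Mb of Pparg, 13 were called, against 11.1% of all genes. The falls included Creld1 (-0.83 ± 0.12) and Il17rc (-0.52 ± 0.12), a chain of the interleukin-17 receptor, and the rises Cidec, Vgll4 (0.40 ± 0.08) and Plxnd1 (0.64 ± 0.08), a semaphorin receptor. Syn2, which lies beside Pparg, fell (-0.47 ± 0.13), and Timp4, within Syn2, differed by 0.39 ± 0.13 (adjusted p = 0.070). By chromosome, the called share ran from 7.01% of genes on chromosome 13 to 12.96% on chromosome 19 among the autosomes. The calls of Cidec and Syn2 were lost, in turn, without WT 1, WT 2, WT 3, TA 1, TA 2 or TA 4 (adjusted p up to 0.090) and without WT 1, WT 2, WT 4, TA 1, TA 3 or TA 4 (adjusted p up to 0.084).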

How the data were processed

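Total RNA of differentiated adipocytes was extracted with TRIzol and sequenced on an Illumina NovaSeq instrument. According to the methods of the study, reads were aligned to GRCm38 (Ensembl) with Hisat2; the submitters' processing notes name HISAT2 2.0.1, HTSeq 0.6.1, cutadapt 1.9.1 and bcl2fastq 2.17.1.14 without their roles, and the counter and its strand setting are not given in the sources used here. The deposited table holds raw read counts per gene made by the authors, not normalized, and all of its columns for the TA and WT libraries were used. Its 55573 genes include 27 symbols that a spreadsheet had turned into dates, restored by gene ID, and 55394 IDs were found in GENCODE M21.

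Genes were filtered with filterByExpr (minimum count 10, minimum total 15), scaled by TMM and tested with edgeR 4.0.16 (quasi-likelihood, two-sided, R 4.3.3) in 1 fit to all 12 libraries, with the contrast TA minus WT and Benjamini-Hochberg adjustment over 15117 genes. A call is an adjusted p under 0.05, "rose" and "fell" are used of called genes, ± is the standard error of a log2 fold change, and CPM are counts per 1000000 after TMM scaling. Relative levels of lists used log2 CPM with a prior count of 2. The fit was checked on simulated counts. DESeq2 1.42.0, other scalings and filters, a replicate block, and fits without each library were tried as alternatives. Gene lists are described by counts of calls and medians, with no test of a list. Intervals on ratios of counts are exact 95% intervals for counting error only.

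The comparison, gene lists and rules were chosen with earlier results of these data known. Named genes were Pparg; the 15 largest rises and 15 largest falls without overlap of libraries whose higher genotype averaged 5 CPM or more; the 10 called genes with the most counts; in each list up to 3 largest called rises and falls and the uncalled member with the highest CPM; genes at 3 counts or fewer in each library of 1 genotype and called; and the 3 markers with the highest CPM of each cell type. Not every gene that met the rule is printed, and some genes are not reported here. Acaca, Adipoq, B2m, C4b, Cd36, Cfb, Cfd, Creld1, Cxcl12, Dgat2, Fads1, Fads2, Gbp3, Gbp9, Gclc, Gclm, Gpam, Gpx4, H2-D1, H2-K1, H2-Q4, Herc6, Hmgcs1, Hspa5, Ifi203, Ifitm3, Il17rc, Irf7, Irf9, Isg15, Lgals3bp, Lgals9, Me1, Myh8, Notch3, Oas1a, Orm1, Parp9, Pdgfra, Plin1, Plxnd1, Prdm16, Retn, Saa3, Slc25a1, Slc2a4, Srxn1, Stat2, Syn2, Timp4, Vgll4 and Zbp1 were chosen after their values were seen, as were the genes counted near Pparg. Promoter windows were matched by symbol from RefSeq for 10870 of the tested genes.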

Additional observations from a re-analysis of the deposited data

Results flagged for a closer look

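Within each group of 4 libraries, the highest or lowest library was set against the others for the total counts, the mitochondrial and Scd1 shares, list levels and every gene named. Of 410 groups examined, 19 had a library far from the other 3, and chance alone gives about 1 in 20. The flags were spread over all 8 libraries, from 1 to 4 in each.

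Among TA libraries, TA 4 was high for C4b (2661 CPM), Slc27a1 (919 CPM) and Nptx1 (2.06 CPM) and low for Thrsp (1482 CPM). TA 2 was low for Car3 (1744 CPM) and high for Cdsn (1.17 CPM) and Myog (1.11 CPM). TA 3 was high for Ccl2 (35.2 CPM) and low for Rxra (272 CPM), and TA 1 was high for Ppargc1a (19.4 CPM). Among WT libraries, WT 2 was low for Cd36 (1401 CPM) and Rasd1 (35.8 CPM) and high for Ubd (1.14 CPM) and Otop1 (0.0497 CPM, which is its single count). WT 4 was high for Ifi203 (61.2 CPM) and Cspg4 (30.0 CPM), WT 1 was high for Rbp4 (750 CPM) and low for Lctl (11.3 CPM), and WT 3 was high for Adamts15 (266 CPM). In the called genes among these, the flagged library stayed on its own genotype's side of the gap between WT and TA.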

How the results depend on the processing

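The number of genes called stayed within 1.5 times of 1683 under every alternative but the stricter threshold: 1661 with DESeq2 size factors, 1727 with library totals alone, 2065 with DESeq2, 2314 with no filter on low counts, 1603 with at least 10 counts in each TA and WT library, 1231 with the TA and WT libraries alone, and 1160 (without WT 1) to 1939 (without TA 2) when 1 library was left out. Requiring a log2 fold change over 1 in size as well left 424. The share of calls that were higher in TA, 60.37%, was 63.61% with TA and WT alone, 56.22% with library totals, 57.13% with no filter and 72.41% with the fold threshold, and ran from 56.88% (without TA 4) to 60.96% (without TA 2) in the fits without 1 library. The labels do not say whether the replicate numbers pair the libraries. The correlations of same-numbered WT and TA libraries were -0.042, -0.237, 0.196 and -0.022, within the range of unlike-numbered ones, -0.257 to 0.264. With 4 libraries per genotype, these values cannot decide whether libraries of the same number share a batch. With the replicate block the count was 1560 and the share 61.67%. Of 215 called genes examined by name, 192 could be tested under all 15 alternatives that refitted the genes, and 138 of these kept the call in each. Of the 215, 65 lost the call without at least 1 library, 38 in at least 1 other setting, and none changed direction. Leaving out WT 1 lost the most of these calls (45) and leaving out TA 2 the fewest (21). Of 68 genes that were not called, 19 changed sign in some setting. Among list medians, that of skeletal muscle markers moved from 2.47 to 0.76 with at least 10 counts in every library and to 1.78 without TA 2. The cause of these differences was not tested. Totals of 16950175 to 20324286 counts per library limit what can be said of genes with a few counts, such as Ucp1, and 4 libraries per genotype limit small differences.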
